A study of Mus musculus with 8 samples.

Results

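The antiviral effector genes Rsad2, Cmpk2, Mx1, Mx2, Ifi44, Ifitm1, Ifitm2, Ifitm3, Bst2 and Isg20 were followed in RNA-seq of stromal cells from the mouse large intestine. They were chosen by symbol, with earlier results of these data known, and are 10 of the 24346 genes measured. Cells positive for podoplanin and negative for CD45, CD31, EpCAM and 7AAD, the marker of dead cells, were sorted from whole colons of 8 mice aged 12 weeks, with 1 library per mouse. The 4 control libraries, labelled WT, came from mice with the Il10ra flox/flox genotype, and the 4 cKO libraries from Pdgfra cre; Il10ra flox/flox mice, so that both groups carry floxed alleles of the interleukin-10 receptor chain. Only the cKO mice carry Cre, under control of the fibroblast gene Pdgfra. The series' title gives the question as what this receptor does in fibroblasts to type I interferon signalling.

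Type I interferon binds the receptor IFNAR and activates a transcription factor complex that includes STAT2 and IRF9 and binds the interferon-stimulated response element (ISRE) in promoters. The genes followed here lie downstream and act at different steps of a viral infection. IFITM proteins sit in membranes and hinder fusion of virus with the cell, MX proteins are dynamin-like GTPases that act on incoming viral particles and nucleoproteins, viperin (Rsad2) makes a nucleotide that stops viral polymerases, ISG20 is an RNA exonuclease, and tetherin (Bst2) holds budding particles at the cell surface. Some of them, among them the IFITM genes, are also expressed by fibroblasts in the absence of infection.

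Values are FPKM (fragments normalised for transcript length and library size), so levels can be compared between genes. Between 15815 and 16323 genes lay above 0 in a library, and depth relative to WT replicate 1 ran from 0.868 to 1.095. Podoplanin (Pdpn) was at 84.8 to 94.7 FPKM, and the fibroblast matrix gene Dcn at 6691 to 7360. Other stromal markers were less even. Pdgfra was at 157 to 161 FPKM in WT libraries and 126, 163, 167 and 163 in cKO replicates 1 to 4. The summed FPKM of 10 stromal markers was 19889 to 20877 in WT libraries. In cKO replicates 1 to 4 it was 18100, 21094, 22167 and 18233, and 4 of the 10 were higher on average in cKO. Of the genes of the proteins sorted against, Ptprc (CD45) was at 1.99 to 4.15 FPKM, Pecam1 (CD31) at 0.594 to 2.37 and Epcam at 1.27 to 34.7. The highest Epcam values were in cKO replicate 1 (34.7) and cKO replicate 2 (11.6), against 2.72 to 4.02 in the WT libraries. The summed FPKM of 18 epithelial markers was 67.8 to 147 in WT libraries and 1209, 558, 146 and 57.5 in cKO replicates 1 to 4. None of these markers was at 0 in all libraries. Endothelial markers differed in mean between the groups as well, with no test made. The mean log2(FPKM + 1) of 12 blood endothelial markers was 1.04 to 1.21 in WT and 1.26 to 1.75 in cKO libraries, with 11 of the 12 higher on average in cKO. The mean of 7 lymphatic endothelial markers was 0.137 to 0.535 in WT and 0.615 to 1.03 in cKO libraries, with 6 of the 7 higher. The summed FPKM was 96.0 to 99.7 and 93.8 to 98.0 for the blood list, most of it Tek, and 0.720 to 5.51 and 6.22 to 15.4 for the lymphatic list, and no marker of either was at 0 in all libraries. Pecam1 was at 0.803 ± 0.178 and 1.54 ± 0.597 FPKM (SD, n = 4 each). Il10ra itself was at 0.403 to 0.842 FPKM in WT and 0.273 to 0.636 in cKO libraries, and the groups overlapped. Because which exons are floxed is not stated and FPKM sums over the gene, this is no test of the deletion.

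Promoters of these genes are shown because the ISRE, which the complex with STAT2 and IRF9 binds, lies in promoters. RefSeq windows on GRCm38.p6, from 250 bases before to 50 bases after the start that RefSeq gives, were found for 8 of the 10 genes. None was found for Mx1 and Mx2. The ISRE core searched was GAAANNGAAA on both strands. A match occurred in the windows of 4 of the 8 genes (Rsad2, Ifitm2, Ifitm3 and Bst2), against 3.99% of the 27025 genes with a window. Among 50 other interferon-induced antiviral genes with a window the share was 54.0%. For Rsad2, Cmpk2, Bst2 and Ifitm2 the bases from 150 to 31 before the start are given. Rsad2 lies at chr12:26456483-26456602 (minus strand), Cmpk2 at chr12:26469065-26469184 (plus strand), Bst2 at chr8:71537503-71537622 (minus strand) and Ifitm2 at chr7:140955992-140956111 (minus strand). For Ifitm3 bases 1 to 30 after the start are given, at chr7:141010714-141010743 (minus strand). Capitals mark the ISRE core matches, 5′ to 3′ on the gene's strand.
Rsad2: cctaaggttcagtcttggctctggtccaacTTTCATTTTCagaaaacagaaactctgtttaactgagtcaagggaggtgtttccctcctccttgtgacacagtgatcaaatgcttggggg
Cmpk2: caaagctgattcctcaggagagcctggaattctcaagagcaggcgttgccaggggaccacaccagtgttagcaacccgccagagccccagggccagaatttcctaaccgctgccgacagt
Bst2: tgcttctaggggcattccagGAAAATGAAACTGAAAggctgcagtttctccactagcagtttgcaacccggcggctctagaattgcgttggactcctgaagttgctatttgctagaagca
Ifitm2: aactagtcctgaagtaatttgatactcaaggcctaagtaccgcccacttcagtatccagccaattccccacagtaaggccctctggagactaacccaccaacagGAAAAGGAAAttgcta
Ifitm3: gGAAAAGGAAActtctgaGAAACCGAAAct

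The match of Rsad2 began 120 bases before the start and lay on the opposite strand. Bst2 held 2 overlapping matches, which began 130 and 124 bases before the start. The Ifitm2 match began 46 bases before the start, and the Ifitm3 matches began 2 and 19 bases after it. The windows of Cmpk2, Ifi44, Ifitm1 and Isg20 held no match to these letters. That of Ifitm1, at chr7:140967826-140968125, lay inside the gene as GENCODE M21 places it, from base 140967221. The bases before that start were not searched.

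The genes covered a wide span of levels. Ifitm3 (1546 ± 108 FPKM in WT and 1648 ± 84.5 in cKO libraries, SD, n = 4 each) was the 23rd most abundant of all genes by mean FPKM and Ifitm2 the 36th. The 3 IFITM genes held 94.7% to 96.5% of the summed FPKM of the 10 genes. Below Ifitm3 and Ifitm2 followed Ifitm1, Bst2, Isg20, Cmpk2, Mx2, Rsad2, Ifi44 and Mx1. From Ifitm3 down to Mx2 each gene was above the next in 8 of 8 libraries, with no overlap of their ranges. The rank of Ifitm2 and the IFITM share are less certain. Of the 50-base words of the Ifitm2 transcript, 48.5% also occur in other genes, among them Ifitm3. Mx2 was above Rsad2 in the 4 WT libraries and in 3 of the 4 cKO libraries, and Ifi44 above Mx1 in 5 of 8, so the order of these neighbours was not fixed.

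Between WT and cKO libraries no member passed the adjusted test. Rsad2, Bst2 and Mx2 had a higher cKO mean at an unadjusted p under 0.05. So did Mx1 in the fit with no filter that was used for it (limma unadjusted p = 0.0493). Rsad2 had the largest difference on the log2(FPKM + 1) scale and was the only member whose groups did not overlap. Of all tested genes, 1.36% had all 4 cKO values above all 4 WT values. With a pseudocount of 0.1 in place of 1 the differences of the low genes Mx1 (1.22) and Ifi44 (1.06) were larger than that of Rsad2 (0.90). Mx2 and Bst2 were higher in 3 of 4 cKO libraries than in any WT library. Ifitm1, Ifitm2 and Cmpk2 had ratios of the cKO to the WT mean of 1.00, 0.995 and 1.04, and Isg20 had a lower mean in cKO. In limma on log2(FPKM + 1), over the 11506 genes whose mean FPKM reached 1, 0 of the 8 members tested passed a Benjamini-Hochberg adjusted p under 0.05. Over all genes 1 gene passed, 0.00869% of those tested; it was the microRNA gene Mir5098, listed at 0 in all 4 cKO libraries and named after its values were seen. At an unadjusted p under 0.05, 3 of the 8 members (Rsad2, Bst2 and Mx2) were higher in cKO and 0 lower, against 2.37% of all tested genes higher. The 8 tested members had a median log2 difference of 0.06, against -0.01 over the whole table. Of them, 6 had a higher cKO mean, against 47.4% of genes over the whole table. That count rested in part on single libraries. It was 4 without cKO replicate 4 and 7 without WT replicate 3, against 46.6% and 47.7% of genes over the whole table. The members were chosen with earlier results of these data known, so these counts are descriptions only. In bulk libraries, a smaller number of cells of a type and less RNA per cell cannot be told apart. Mx1 and Ifi44 had a mean FPKM under 1 and were taken from the fit with no filter, over 18065 genes.

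**Figure D1:**
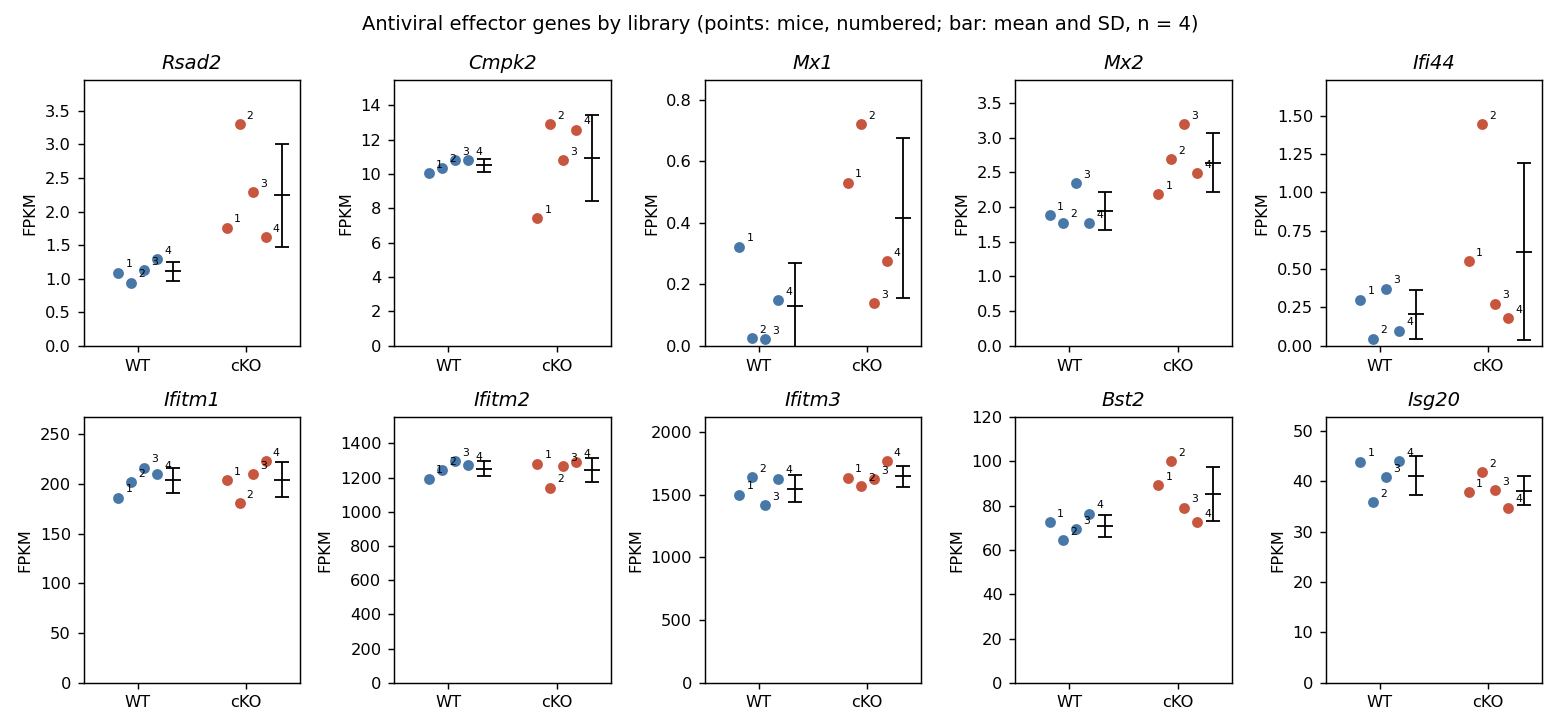
FPKM of the 10 genes in each library, with the vertical axis of each panel starting at 0; points are mice, numbered by replicate, and the bar beside them is the mean with SD (n = 4). The 4 cKO values of Rsad2 lie above the 4 WT values, while the points of Ifitm1, Ifitm2 and Isg20 overlap.

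**Figure D2:**
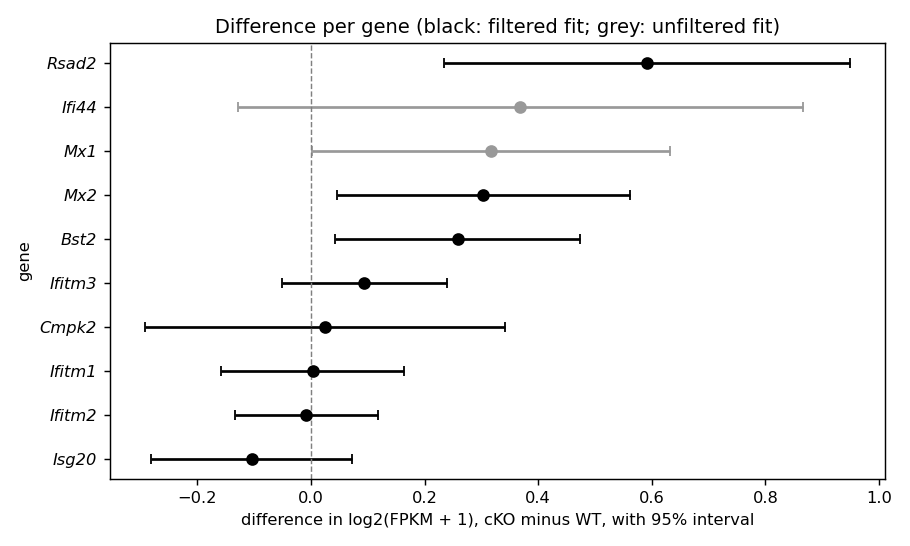
Difference in log2(FPKM + 1) between cKO and WT libraries (horizontal axis) for each gene (vertical axis), with its 95% interval from limma; black marks genes of the filtered fit and grey marks Mx1 and Ifi44 from the fit with no filter. The interval of Rsad2 runs from 0.23 to 0.95, and those of the IFITM genes, Cmpk2, Ifi44 and Isg20 include 0.

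Rsad2 (ENSMUSG00000020641.16, chr12:26442746-26456452, mm10, minus strand) encodes viperin, a radical SAM enzyme that turns CTP into a chain terminator of viral RNA synthesis. In WT replicates 1 to 4 its FPKM was 1.09, 0.942, 1.13 and 1.29. In the cKO libraries, in the same order, it was 1.76, 3.30, 2.28 and 1.62. All cKO libraries lay above all WT libraries, with cKO replicate 2 highest and WT replicate 2 lowest; 1.36% of the tested genes had this order. The means were 1.11 ± 0.141 and 2.24 ± 0.763 FPKM (SD, n = 4 each), a ratio of 2.01. The low values lay on whole steps, which gave 72, 54, 76 and 87 fragments in WT and 122, 224, 165 and 108 in cKO libraries (within 0.0036 of a whole number). Counting error alone is 13.6% of the value at 54 fragments and 6.68% at 224. The means of the endothelial marker lists had the same order, all cKO above all WT libraries, and their part in the Rsad2 difference was not tested. The log2 difference was 0.59 (SE 0.16, 95% interval 0.23 to 0.95, limma adjusted p = 0.897), and the gene was the 45th of 11506 by unadjusted p. Leaving out cKO replicate 1 gave 0.66 and leaving out cKO replicate 2 gave 0.45. With the mean of the epithelial markers as a covariate it was 0.56 (adjusted p = 0.633).

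Cmpk2 (chr12:26469204-26479837, plus strand) lies next to Rsad2 with 12751 bases between them, on the opposite strand, and encodes a mitochondrial nucleotide kinase that phosphorylates CMP and UMP. Its FPKM was 10.1, 10.4, 10.8 and 10.8 in WT libraries, and 7.43, 12.9, 10.8 and 12.6 in cKO replicates 1 to 4. The WT libraries were close together, whereas cKO replicate 1 was the lowest of all 8 libraries and cKO replicates 2 and 4 the highest. The means were 10.5 ± 0.375 and 10.9 ± 2.51 FPKM (SD, n = 4 each), with a log2 difference of 0.02 (95% interval -0.29 to 0.34, limma adjusted p = 0.994). The difference was 0.18 without cKO replicate 1, 0.17 with the epithelial covariate, and -0.06 and -0.05 without cKO replicates 2 and 4, so the sign rested on single libraries. In WT libraries the ratio of Rsad2 to Cmpk2 was 0.106 ± 0.0116 (SD, n = 4). In cKO libraries the ratio was 0.208 ± 0.0560, with values of 0.237, 0.256, 0.211 and 0.129, all above the highest WT value of 0.119. A ratio within a library does not depend on how libraries are scaled to each other. It differed by 0.94 on the log2 scale (two-sided exact permutation p = 0.0286, the smallest that 70 arrangements allow, and 0.143 adjusted over the 5 pairs of members that share a locus). The pairs were chosen after the values were seen.

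**Figure D3:**
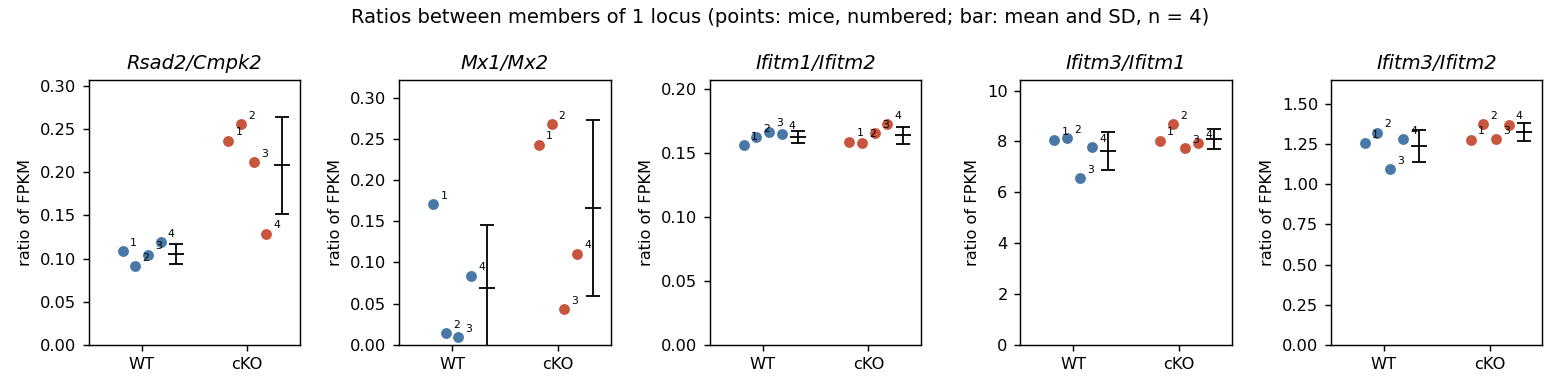
Ratio of FPKM between members that share a locus, per library (points are mice, numbered by replicate; the bar beside them is the mean with SD, n = 4), each vertical axis starting at 0. The Rsad2 to Cmpk2 ratio lies at 0.0909 to 0.119 in WT and 0.129 to 0.256 in cKO libraries, and the groups overlap in the other 4 ratios.

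Mx1 (chr16:97447035-97462907, minus strand) and Mx2 (chr16:97535308-97560900, plus strand) encode the mouse MX GTPases. Many inbred mouse strains carry defective alleles of these genes, and GENCODE M21 lists Mx2 as a polymorphic pseudogene. The strain is not given in the sources used here. The FPKM of Mx2 was 1.88, 1.77, 2.35 and 1.77 in WT libraries and 2.18, 2.69, 3.19 and 2.49 in cKO libraries. Only WT replicate 3 reached into the cKO range, above cKO replicate 1. The means were 1.94 ± 0.274 and 2.64 ± 0.424 FPKM (SD, n = 4 each), from 63 to 98 and 94 to 143 fragments per library. The log2 difference was 0.30 (SE 0.12, 95% interval 0.05 to 0.56, limma adjusted p = 0.897), and it was 0.37 both without cKO replicate 1 and with the epithelial covariate.

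Mx1 was the lowest of the 10 genes. Its FPKM was 0.322, 0.0251, 0.0213 and 0.149 in WT libraries and 0.531, 0.720, 0.139 and 0.275 in cKO libraries. WT replicate 1 lay above cKO replicates 3 and 4, so the groups overlapped. The log2 difference in the fit with no filter was 0.32 (95% interval 0.00123 to 0.63, limma adjusted p = 0.914). Mx1 was highest in cKO replicate 2 and next in cKO replicate 1. The mean log2(FPKM + 1) of the 18 epithelial markers was 3.80 and 5.28 in these, the reverse order. With the epithelial covariate the difference was 0.19, and the part of epithelial cells in it was not tested. Between Mx1 and Mx2 lies Fam3b, which was at 0 to 0.164 FPKM in WT and at 1.75, 1.30, 0.306 and 0.413 in cKO replicates 1 to 4. On the far side of Mx2 lies the membrane protease gene Tmprss2, which had 9.17 FPKM in cKO replicate 1 and 0.413 to 2.46 in the other 7 libraries. The Mx1 to Mx2 ratio did not separate the groups (0.0696 ± 0.0758 against 0.166 ± 0.107, SD, n = 4 each; two-sided exact p = 0.2 by permutation). Of the 50-base words of their transcripts, 3.91% for Mx1 and 4.38% for Mx2 also occur in another gene, mostly in each other.

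Ifi44 (chr3:151730922-151749960, minus strand) encodes an interferon-induced cytoplasmic protein. The FPKM was 0.301, 0.0462, 0.373 and 0.0979 in WT libraries, which stood for 15, 2, 19 and 5 fragments. In cKO libraries it was 0.553, 1.44, 0.275 and 0.178, from 29, 74, 15 and 9 fragments. Of the 127 fragments in cKO libraries 74 were in replicate 2, and cKO replicates 3 and 4 lay within the WT range. The log2 difference with no filter was 0.37 (95% interval -0.13 to 0.87, limma adjusted p = 0.915), and 0.15 without cKO replicate 2. It was 0.23 with the epithelial covariate. Counting error alone is 70.7% of the value at 2 fragments and 11.6% at 74, so the spread among the cKO libraries was larger than counting error. The neighbouring relative Ifi44l was listed at 0 in 7 libraries and had 0.198 FPKM in cKO replicate 4.

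The IFITM genes lie together on chromosome 7, as Ifitm2 (140954837 to 140955987, minus strand), Ifitm1 (140967221 to 140969825, plus strand) and Ifitm3 (141009586 to 141010770, minus strand). Ifitm3, the member known for blocking entry of influenza virus from endosomes, was at 1499, 1640, 1415 and 1628 FPKM in WT and 1636, 1568, 1621 and 1767 in cKO libraries. The groups overlapped, with WT replicate 3 lowest and cKO replicate 4 highest. The log2 difference was 0.09 (SE 0.06, 95% interval -0.05 to 0.24, limma adjusted p = 0.925). It was 0.19 with quantile normalization and 0.05 without WT replicate 3.

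Ifitm2 was at 1193, 1243, 1295 and 1271 FPKM in WT and 1281, 1140, 1266 and 1290 in cKO libraries. Except for cKO replicate 2, which was the lowest of all, the cKO libraries lay inside the WT range. The means were 1251 ± 44.2 and 1244 ± 70.1 FPKM (SD, n = 4 each; log2 difference -0.01, 95% interval -0.13 to 0.12, limma adjusted p = 0.994). Quantile normalization and rescaling to a fixed sum turned the sign (0.07 and 0.03). Values of Ifitm2 are uncertain, because 48.5% of the 50-base words of its transcript also occur in other genes, among them Ifitm3 and the overlapping gene model Gm45717, against 10.02% for Ifitm3 and 5.02% for Ifitm1.

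Ifitm1 was at 186, 202, 216 and 210 FPKM in WT and 204, 180, 210 and 223 in cKO libraries. The lowest value was again in cKO replicate 2 and the groups overlapped, with means of 203 ± 12.9 and 204 ± 17.7 FPKM (SD, n = 4 each). The log2 difference was 0.00 (95% interval -0.16 to 0.16, limma adjusted p = 0.996). Ifitm1 and Ifitm2 went together across libraries, at a ratio of 0.163 ± 0.00468 and 0.164 ± 0.00676 in WT and cKO libraries (SD, n = 4 each). For the difference of this ratio between the groups the exact permutation p was 0.771. Ifitm3 was less tied to them, with an Ifitm3 to Ifitm2 ratio of 1.24 ± 0.1001 and 1.33 ± 0.0539 (SD, n = 4 each). For the group difference of that ratio the exact permutation p was 0.2. The flanking relatives Ifitm5 and Ifitm6, which are known from bone and from myeloid cells, were at 0.313 to 2.44 and 0.737 to 3.19 FPKM.

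Bst2 (chr8:71534255-71537456, minus strand) encodes tetherin, a membrane protein anchored at both ends that keeps budding virus on the cell. Its FPKM was 72.6, 64.5, 69.3 and 76.5 in WT and 89.3, 100.1, 79.0 and 72.6 in cKO libraries. Of the cKO libraries 3 lay above every WT library, and cKO replicate 4 lay inside the WT range. The means were 70.7 ± 5.06 and 85.2 ± 12.1 FPKM (SD, n = 4 each), a ratio of 1.21, with a log2 difference of 0.26 (SE 0.10, 95% interval 0.04 to 0.47, limma adjusted p = 0.897). The order of the cKO libraries by Bst2 was replicates 2, 1, 3 and 4, and the mean log2 of the 18 epithelial markers was 3.80, 5.28, 2.33 and 1.63 in these, against 1.79 to 2.53 in WT. With that mean as a covariate the Bst2 difference was 0.17 (adjusted p = 0.796), and without cKO replicate 1 or 2 it was 0.23 or 0.18. Plasma cells and plasmacytoid dendritic cells also express tetherin, and the sort was for CD45-negative cells. Ptprc (CD45) was at 3.35 ± 0.677 and 3.27 ± 1.01 FPKM (SD, n = 4 each). Of 15 myeloid markers, 12 were higher on average in cKO. Their mean log2(FPKM + 1) was 1.91 to 2.17 in WT libraries and 2.84, 2.15, 2.02 and 2.00 in cKO replicates 1 to 4. The plasma cell gene Jchain was at 21.5 to 53.7 FPKM in WT and 136, 51.4, 20.04 and 35.7 in cKO libraries, and Siglech, which marks plasmacytoid dendritic cells, at 0 to 0.142. The part of epithelial, myeloid, plasma or plasmacytoid dendritic cells in the Bst2 difference was not tested. Plvap, an endothelial gene on one side of Bst2, was at 3.57 ± 1.01 and 7.07 ± 4.04 FPKM, and Mvb12a on the other side at 25.8 ± 2.65 and 26.9 ± 3.28 (SD, n = 4 each).

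Isg20 (chr7:78913424-78920396, plus strand) encodes a 3′ to 5′ exonuclease of single-stranded RNA. The FPKM was 43.9, 35.8, 40.9 and 44.0 in WT and 37.8, 41.8, 38.3 and 34.8 in cKO libraries. Apart from cKO replicate 4, the lowest of all, the cKO values lay inside the WT range. The means were 41.2 ± 3.83 and 38.2 ± 2.89 FPKM (SD, n = 4 each), with a log2 difference of -0.10 (SE 0.08, 95% interval -0.28 to 0.07, limma adjusted p = 0.929).

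Single libraries carried much of the spread among the genes. The highest value over all 8 libraries was in cKO replicate 2 for 5 of the 10 genes (Rsad2, Cmpk2, Mx1, Ifi44 and Bst2), and the same library had the lowest Ifitm1 and Ifitm2. Of the lowest values, 3 were in WT replicate 2 (Rsad2, Ifi44 and Bst2). Across the 8 libraries, which share their group difference, the log2 values of Bst2 had Pearson r of 0.89 with Mx1, 0.88 with Rsad2 and 0.86 with Ifi44. Taken as deviations from the group means these were 0.80, 0.76 and 0.82, and Bst2 and Isg20, at 0.25 over the 8 values, had 0.84. Ifitm1 and Ifitm2 had 0.94 over the 8 values and 0.95 as deviations. Rsad2 and Cmpk2 had 0.31 and 0.45. Other pairs went the opposite way: as deviations Ifitm1 had -0.80 with Mx1, -0.74 with Ifi44 and -0.71 with Bst2, and Mx2 had -0.48 with Mx1 and -0.16 with Bst2.

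**Figure D4:**
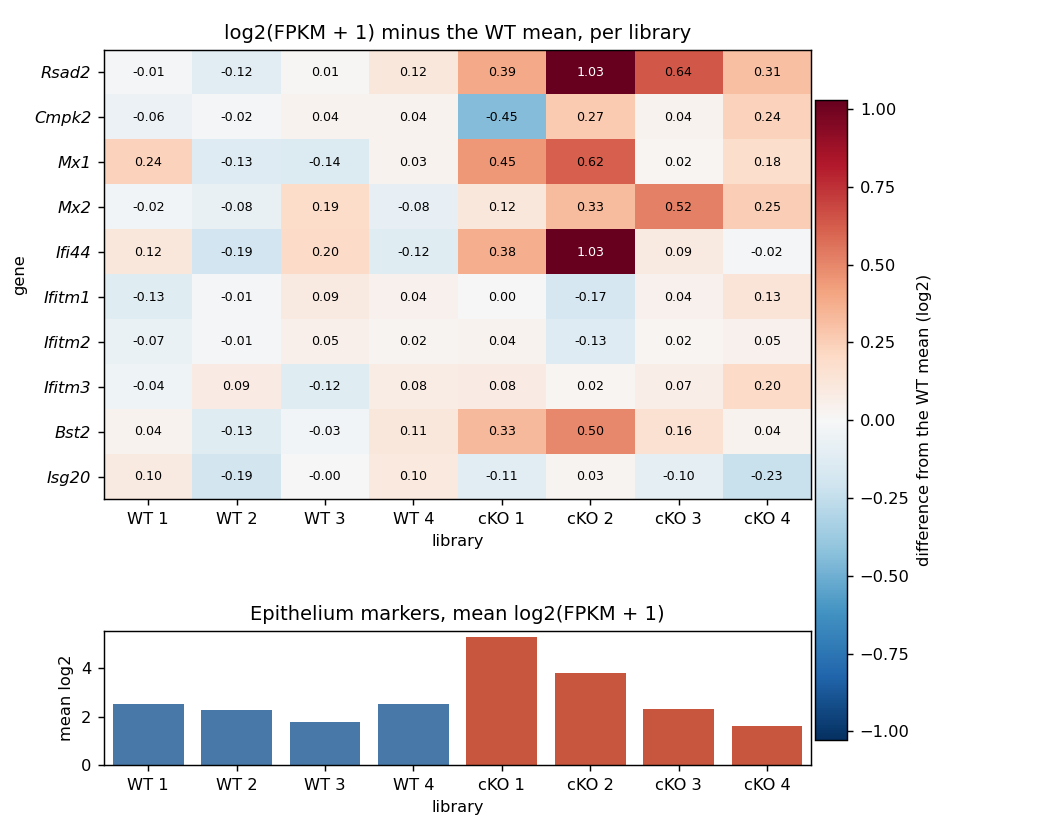
Upper panel: log2(FPKM + 1) of each gene (rows) in each library (columns) minus the mean of the 4 WT libraries, in colour and in figures; lower panel: mean log2(FPKM + 1) of the 18 epithelial markers per library, with the axis starting at 0. In cKO replicate 2 Rsad2 and Ifi44 are each 1.03 above the WT mean, and the epithelial mean is highest in cKO replicates 1 and 2 (5.28 and 3.80).

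The genes outside the list with the most similar pattern were named by the highest Pearson r of log2 values over the 8 libraries, among 11498 tested genes. For Rsad2 they were Cep83 (0.95), Usp18 (0.94), the protease that removes ISG15 and dampens the interferon receptor, and B2m (0.94), which encodes the subunit shared by MHC class I proteins. For Bst2 they were the enterocyte gene Car1 (0.96), Phf11b (0.96) and Lrp10 (0.95). For Ifitm3 they were Sec24c (0.96), Qk (0.95) and Pp2d1 (0.92). With so many genes set against 8 libraries, these values are descriptions only.

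Genes upstream of these effectors were measured in all libraries. The type I receptor chain genes Ifnar1 and Ifnar2 were at 14.9 ± 1.27 and 78.8 ± 4.39 FPKM in WT and 13.8 ± 0.683 and 79.1 ± 9.50 in cKO libraries (SD, n = 4 each). Of the genes of that complex, Stat2 was at 12.4 ± 1.39 and 14.2 ± 0.887, and Irf9 at 23.4 ± 1.09 and 25.8 ± 3.37. Irf7, which amplifies the interferon response, was at 21.6 ± 3.196 and 24.8 ± 4.56. Of the list of 19 receptor and signalling genes, limma called 0. At an unadjusted p under 0.05, 1 was higher and 0 were lower, against 2.37% of all tested genes higher and 3.03% lower. The median log2 difference was 0.03, against -0.01 over the whole table. The higher gene was Usp18 (log2 difference 0.48, SE 0.10, adjusted p = 0.761), which was at 6.10 to 7.53 FPKM in WT and 8.82 to 11.9 in cKO libraries. Of 20 type I and III interferon genes, 18 were listed at 0 in all libraries. Ifnb1 was listed at 0 in 5 libraries and was at most 0.220 FPKM in the others, and Ifnz was at most 0.259.

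Of 61 other interferon-induced antiviral genes, 53 were tested. Of these, 46 had a higher cKO mean, against 47.4% of genes over the whole table. Their median log2 difference was 0.10, against -0.01 over the whole table. None of the 53 was called in limma. An unadjusted p under 0.05 was reached by 9 higher and 1 lower gene, against 2.37% of all tested genes higher and 3.03% lower. The list was chosen with earlier results of these data known, so these counts are descriptions only. The immunity-related GTPase gene Igtp was at 12.8 to 14.7 FPKM in WT and 16.1, 27.0, 24.2 and 28.1 in cKO libraries (log2 difference 0.69, adjusted p = 0.761). Oas2 and Oas1a, which make the 2-5A activator of RNase L, were at 1.82 ± 0.121 and 2.75 ± 0.666, and 2.105 ± 0.234 and 3.15 ± 0.936 FPKM. The RNA-editing enzyme gene Adar was at 5.32 ± 0.172 and 6.66 ± 0.866, and Slfn2 at 3.95 ± 0.542 and 5.08 ± 0.778 FPKM (SD, n = 4 each). Isg15, the ubiquitin-like modifier, was at 12.3 ± 3.41 and 16.3 ± 1.99 FPKM. The 1 lower gene, Ifi27, was at 89.8 ± 2.68 and 77.4 ± 11.4 FPKM and was chosen for mention after its values were seen. Without cKO replicate 1, Igtp was the 1 gene of these lists that limma called. Among 13 relatives of the IFITM, MX, Cmpk2 and Isg20 proteins, 11 were tested and 0 called, and Rexo4, an exonuclease relative of Isg20, was the 1 gene at an unadjusted p under 0.05 (11.7 ± 0.434 and 13.1 ± 0.271 FPKM).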

How the data were processed

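The authors deposited 1 table of FPKM values per library, with the same 24346 gene symbols in each. Per the submitters' processing notes, the build was mm10 and the tools Cufflinks 2.2.1 with Cuffdiff, TopHat2 2.1.1, SAMtools 0.1.18 and Bowtie2 2.3.5.1. What settings and annotation they used is not given in the sources used here. RNA was made into full-length cDNA with SMART-Seq HT, per the labels' protocols.

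The members and gene lists were chosen with earlier results of these data known. Groups and replicate numbers came from the titles. Values were taken as log2(FPKM + 1), which understates the change of low genes, and genes whose mean FPKM reached 1 entered limma 3.58.1 (R 4.3.3; lmFit, then eBayes with trend, 1 factor), with Benjamini-Hochberg adjustment over all 11506 genes and calls at an adjusted p under 0.05. A count model was not used. The procedure was tested on simulated data. Exact permutation tests are two-sided.

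Relative depth and fragments were read from the steps of low values: genes with a mean FPKM under 0.3 gave the modal ratio between libraries (tolerance 0.002 on the log2 scale), and fragments are given where all 8 scaled values of a gene lay on whole multiples of 1 step (tolerance 0.03). For Mx1 no such step was found.

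Named genes were all members, up to 5 genes per pathway list by smallest p, fixed interferon signalling genes, the 3 most similar genes of Rsad2, Ifitm3 and Bst2, flanking genes and abundant markers; 1 signalling gene is not reported here. Gene positions are from GENCODE M21 (GRCm38, the mm10 build), and promoters from RefSeq (GRCm38.p6). Alternatives were other pseudocounts, filters, scalings, variance models, the replicate block, an epithelial covariate and leaving out each library. Python 3.11.15 with pandas 2.3.3, numpy 2.4.6 and matplotlib 3.10.9 was used for the rest.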

Additional observations from a re-analysis of the deposited data

Results flagged for a closer look

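In groups of 4 libraries, a value was taken up here when its gap to the nearest other value, as a share of the range of the group, exceeded Dixon's 95% critical value. Chance does this in about 1 of 20 groups; 48 groups were examined and 4 values were found. Ifitm2 in cKO replicate 2 was at 1140 FPKM, against 1266 to 1290 in the other cKO libraries. The summed FPKM of the stromal markers in WT replicate 1 was 20877, against 19889 to 20057 in the other WT libraries. In cKO replicate 1 the summed myeloid markers were at 177 FPKM, against 84.9 to 93.6 in the other cKO libraries, and the summed markers of plasmacytoid dendritic cells at 68.1 FPKM, against 33.2 to 36.6. In that last list Klk1 was at 38.7 FPKM in cKO replicate 1 and at 1.02 to 6.26 in the other 7 libraries, and Siglech at 0.141.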

How the results depend on the processing

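No member was called under any of the 20 alternatives, and Rsad2, Mx1, Mx2, Ifi44, Ifitm3, Bst2 and Isg20 kept their sign in all that gave a value. Rsad2 ranged from 0.45 to 0.90 on the log2 scale (adjusted p 0.463 to 1.00), Mx2 from 0.23 to 0.42 and Bst2 from 0.17 to 0.33. Ifi44 and Mx1 ranged up to 1.06 and 1.22 with a pseudocount of 0.1. Genes called over the whole table numbered 1, and 1 to 4 when single libraries were left out, namely 3 without WT replicate 3 (Mir5098, Ccl21a and Gm1987), 4 without the first cKO library (Mir5098, Gbp8, Tgtp2 and Igtp) and 2 without the second (Mir5098 and AF357425), all named after their values were seen. Pathway list genes called higher numbered 0 to 1 there, the 1 being Igtp (0.86, adjusted p = 0.00517) without cKO replicate 1. Ifitm2 reversed to 0.0741 with quantile normalization, 0.0271 with rescaling to a fixed sum and 0.00699 with the epithelial covariate, and ranged from -0.0307 to 0.0332 when single libraries were left out. In the same way Ifitm1 ranged from -0.0405 to 0.0603, Cmpk2 from -0.0582 to 0.182 and the log2 difference of the Ifitm1 to Ifitm2 ratio from -0.0147 to 0.0274. The causes were not tested. That of the Rsad2 to Cmpk2 ratio stayed between 0.82 and 1.153. The share of genes with a higher cKO mean was 60.6% with rescaling to a fixed sum, against 47.4%. Deviations of same-numbered libraries were weakly correlated (0.0182 to 0.0912), which cannot settle whether the replicate numbers pair the mice. With the replicate block 1 gene and 0 members were called. Counting error is known for Ifi44 (70.7% at its fewest fragments) and not for Mx1.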
